A study of Homo sapiens with 6 samples.

Results

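Replication-dependent histone mRNAs end in a stem-loop in place of a poly(A) tail, and a dedicated set of factors transcribes, cleaves and degrades them. The RNA of 10 such factors was examined in U87 glioblastoma cells. They were chosen by their known role, with earlier results of these data known, and taken by gene symbol from the deposited table of 60612 genes. NPAT and CASP8AP2 act in histone gene transcription, and SLBP, ZNF473, LSM10 and LSM11 recognise the histone pre-mRNA. CPSF3, SYMPK and CSTF2 belong to the cleavage complex, and ERI1 trims and degrades the stem-loop end. All 10 were found, and all 10 were among the 18106 genes with enough counts to be tested.

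U87 cells are a long-established line from a human glioblastoma. The series compared PRMT6-knockdown cells (shPRMT6, 3 libraries), infected with lentivirus carrying a short hairpin RNA against PRMT6, with control cells infected with a scrambled hairpin (NC, 3 libraries), to learn how suppression of PRMT6 alters gene expression. PRMT6 is an arginine methyltransferase that places asymmetric dimethylation on arginine 2 of histone H3. Both groups were grown in the same serum-containing medium, and the study describes its knockdown cells as stable, puromycin-selected populations and its RNA as 3 independent replicates per group. Which of its hairpins was sequenced is not given in the sources used here.

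The libraries held 56388161 to 75887696 counts, and no pair of replicates agreed within sampling noise, with a chi-square per degree of freedom of 53.0 to 86.3. Levels are given below as CPM, counts relative to library size scaled with edgeR's TMM factors (0.992 to 1.01), or, between genes, as the deposited FPKM, in which fragments are divided by gene length and library size. A gene was called changed at a Benjamini-Hochberg adjusted p under 0.05 in edgeR's quasi-likelihood test. PRMT6 itself had 522, 606 and 449 counts in the NC libraries and 227, 282 and 355 in the shPRMT6 libraries. It fell by 0.87 on the log2 scale (SE 0.187, edgeR adjusted p = 0.0225). That call was lost without the first NC library (adjusted p = 0.0613), without the first shPRMT6 library (0.0588) or without the second shPRMT6 library (0.0713), while the counts of the groups did not overlap. The mesenchymal and neural marker genes VIM (7090 to 8427 CPM), CD44 (455 to 651 CPM) and NES (38.3 to 45.7 CPM) were abundant in all 6 libraries, whereas the glial markers GFAP and SOX2 stayed under 1 CPM, S100B was at 0 and OLIG2 was at 2.15 to 3.20 CPM. Markers of epithelium and blood summed to at most 1.59 CPM in any library.

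Histone mRNAs are made in S phase, when DNA is copied and needs new nucleosomes. NPAT, activated by cyclin E and CDK2, gathers with CASP8AP2 at the histone gene clusters in nuclear bodies. SLBP binds the stem-loop, the U7 small ribonucleoprotein with LSM10 and LSM11 pairs with an element downstream of it, and CPSF3 cuts in between without adding a poly(A) tail. Several of these factors, CPSF3, SYMPK and CSTF2 among them, also work on ordinary polyadenylated mRNAs, so only some members are dedicated to histone RNA.

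The upstream sequences of 4 members, SLBP and CSTF2, which fell, and the activators NPAT and CASP8AP2, are shown for the words for cell cycle factors that they hold or lack. Each run is the 150 bases before the RefSeq transcription start on GRCh38.p14, read 5′ to 3′ on the strand of the gene. Capitals mark matches, on either strand, to words bound by E2F factors, searched as TTCCCGC, as the variant TTGGCGC, as the variant TTCGCGC and as the variant TTGCCGC, or to the word CCAAT bound by NF-Y, which reads ATTGG where it lies on the other strand.
SLBP (chr4:1712320-1712469, minus strand): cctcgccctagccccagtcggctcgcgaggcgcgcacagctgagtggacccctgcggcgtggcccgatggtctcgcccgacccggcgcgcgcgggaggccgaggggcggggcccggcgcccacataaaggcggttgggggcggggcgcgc
CSTF2 (chrX:100820241-100820390, plus strand): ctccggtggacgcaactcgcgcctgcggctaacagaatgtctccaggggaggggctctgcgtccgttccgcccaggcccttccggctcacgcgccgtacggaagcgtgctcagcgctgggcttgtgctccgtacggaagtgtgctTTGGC
NPAT (chr11:108222639-108222788, minus strand): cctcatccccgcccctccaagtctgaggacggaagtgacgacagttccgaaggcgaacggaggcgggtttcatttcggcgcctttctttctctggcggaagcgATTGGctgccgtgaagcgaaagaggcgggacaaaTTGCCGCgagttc
CASP8AP2 (chr6:89829730-89829879, plus strand): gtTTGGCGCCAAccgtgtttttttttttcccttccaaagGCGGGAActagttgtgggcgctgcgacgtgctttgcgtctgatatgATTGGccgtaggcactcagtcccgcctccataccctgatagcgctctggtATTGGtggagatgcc
The run of SLBP holds neither kind of word. CASP8AP2 holds 3 E2F words, a pair of which overlap on opposite strands, and 2 CCAAT words read on the minus strand. The E2F word of CSTF2 begins 5 bases before the start and runs past it, so only its first part is shown.

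Across the wider window of 250 bases before and 50 after the start, a promoter was given for 8 of the 10 members. An E2F word was present in 4 of them (NPAT, CASP8AP2, CPSF3 and CSTF2), against 18.2% of the 17068 promoters of genes tested here. CCAAT was present in 3 (NPAT, CASP8AP2 and LSM10), against 34.8%, and the word TTTGAA, the cell cycle homology region of many genes of late cell cycle stages, in 2 (LSM11 and CSTF2), against 10.97%. All words were searched on both strands. Of the called members with a promoter, SLBP held none of these words and CSTF2 held an E2F word and TTTGAA. The promoter of SLBP was also the richest in G and C of the 8, at 76.7% against a median of 58.7% over all promoters. A match is only the presence of the letters, and an absent word says nothing on whether the factor acts elsewhere at the gene.

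Of the 10 factors, SLBP, ZNF473 and CSTF2 fell in PRMT6-knockdown U87 cells, none rose, and 7 did not pass the test. The share that fell, 3 of 10, stood beside 9.06% of all genes tested, and the share that rose, 0 of 10, beside 9.51%. In either direction 18.6% of genes were called. The median log2 fold change of the 10 was -0.07, against -0.01 over all genes, with 7 negative and 3 positive values. None passed the threshold the study used, an absolute log2 fold change above 1 with an unadjusted p under 0.05, which 5.92% of genes passed. CPM of the groups did not overlap for the same 3 genes, a property of 40.2% of all genes. The calls for SLBP, ZNF473 and CSTF2 held in all 16 fits that were run, and none of the other 7 genes was called in any of them. In bulk RNA, a smaller share of cells making a transcript and less of it per cell cannot be told apart.

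**Figure D1:**
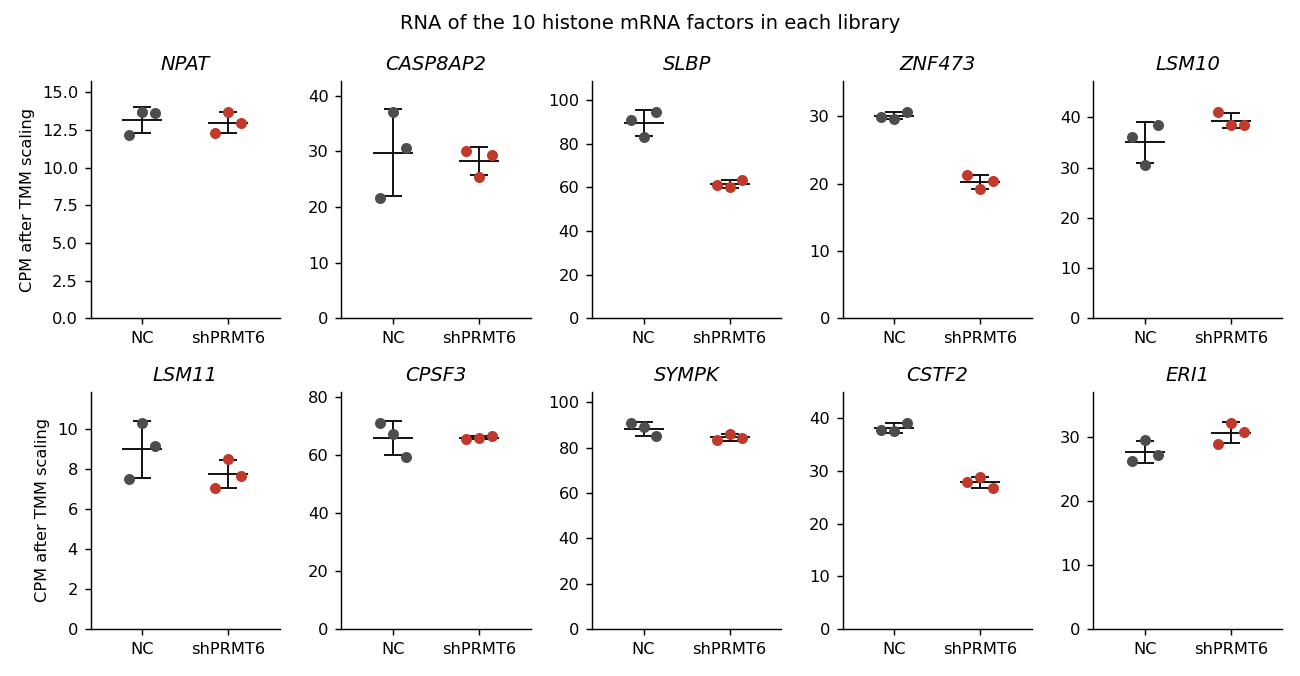
CPM after TMM scaling of the 10 factors in each library, with the NC libraries in grey, the shPRMT6 libraries in red, and the mean and SD of 3 libraries as bars. The 3 shPRMT6 points of SLBP, ZNF473 and CSTF2 lie below all NC points, and the groups of the other 7 genes overlap.

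Neither activator of histone gene transcription passed the test. NPAT, on chromosome 11 at 108157215 to 108222642 (GRCh38, minus strand), is the substrate of cyclin E-CDK2 that switches histone genes on. Its CPM was 12.1, 13.7 and 13.6 in NC and 12.3, 13.7 and 12.99 in shPRMT6 cells. The ranges lay over each other, and the log2 fold change of -0.02 had a 95% interval of -0.26 to 0.22 (edgeR adjusted p = 0.922). Exons of NPAT overlap those of ATM on the other strand over 143 bases, 1.90% of its exonic length, and use of strand in counting is not given in the sources used here. ATM, the DNA damage kinase whose gene starts beside that of NPAT, differed by 0.30 on the log2 scale (SE 0.184, edgeR adjusted p = 0.317).

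CASP8AP2, also named FLASH, binds NPAT in the histone locus body and LSM11 in the cleavage machinery. It lies on chromosome 6 at 89829894 to 89874436 (plus strand). Its CPM was 21.6, 37.1 and 30.6 in NC and 30.1, 25.4 and 29.4 in shPRMT6 cells. It was the most uneven of the 10 among the control libraries, with a coefficient of variation of 26.1% and a highest value 1.71 times the lowest. The log2 fold change of -0.07 therefore had a wide interval, from -0.54 to 0.40 (edgeR adjusted p = 0.839), and became 0.12 without the second NC library. A change of the size seen for SLBP lay inside that interval.

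SLBP, the stem-loop binding protein, stays on histone mRNA from cleavage through translation. It lies on chromosome 4 at 1692800 to 1712555 (minus strand). Its CPM was 90.7, 82.9 and 94.6 in the NC libraries and 61.2, 59.9 and 63.4 in the shPRMT6 libraries. Every shPRMT6 library was below every NC library, at 68.8% of the NC mean, with less spread in the knockdown group (coefficient of variation 2.82%) than in the controls (6.66%). The log2 fold change was -0.54 (SE 0.0708, edgeR adjusted p = 0.00443), and it lay between -0.59 and -0.50 in the 15 alternative fits.

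ZNF473, also named ZFP100, is a zinc finger protein of the U7 ribonucleoprotein that contacts the SLBP and stem-loop complex. Its gene is on chromosome 19 at 50025714 to 50053414 (plus strand). The CPM was 29.9, 29.7 and 30.6 in NC and 21.3, 19.3 and 20.3 in shPRMT6 cells, so the groups lay apart by more than the spread within either. Its fold change was -0.57 on the log2 scale (SE 0.0788, edgeR adjusted p = 0.00531), which left 67.6% of the NC mean and lay within the error of that of SLBP. Its exons share 468 bases, 6.78% of their length, with exons of VRK3 and AC010624.3 on the opposite strand, so reads of these genes may not be fully separable there.

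The U7-specific ring proteins LSM10 and LSM11, which replace SmD1 and SmD2 of the spliceosomal ring, did not pass the test. LSM10 (chromosome 1 at 36391238 to 36397892, minus strand) had 36.1, 30.5 and 38.4 CPM in NC and 41.1, 38.5 and 38.4 CPM in shPRMT6 cells. Its log2 fold change was 0.17, with an interval of -0.08 to 0.41 (edgeR adjusted p = 0.313). LSM11 (chromosome 5 at 157743695 to 157760709, plus strand) had 7.49, 10.3 and 9.13 CPM in NC and 7.07, 8.48 and 7.68 CPM in shPRMT6 cells. Its log2 fold change was -0.21, with an interval of -0.58 to 0.15 (edgeR adjusted p = 0.390). With opposite signs and overlapping groups, neither gene was distinguishable from no change, and for LSM11 a fall as large as that of SLBP was not outside the interval.

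In the cleavage complex, the RNA-binding subunit CSTF2 fell, and the nuclease and the scaffold did not pass the test. CSTF2, the subunit of the cleavage stimulation factor that binds the pre-mRNA, is on chromosome X at 100820359 to 100840932 (plus strand). Its CPM was 37.8, 37.5 and 39.2 in NC and 27.9, 28.9 and 26.8 in shPRMT6 cells. The knockdown libraries stood at 73.0% of the NC mean with no overlap, and the log2 fold change was -0.45 (SE 0.0713, edgeR adjusted p = 0.00779).

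CPSF3, the endonuclease that makes the cut, is on chromosome 2 at 9423568 to 9473101 (plus strand). Its CPM was 71.2, 67.2 and 59.5 in NC and 65.7, 65.8 and 66.5 in shPRMT6 cells. The knockdown values lay inside the range of the controls, and the log2 fold change of 0.00 had an interval of -0.19 to 0.19 (edgeR adjusted p = 0.997). SYMPK, the scaffold symplekin, is on chromosome 19 at 45815410 to 45863290 (minus strand). It had 91.0, 89.1 and 84.9 CPM in NC and 83.2, 86.2 and 84.3 CPM in shPRMT6 cells, a log2 fold change of -0.06 with an interval of -0.20 to 0.07 (edgeR adjusted p = 0.509). For both genes the interval did not reach the fold change of SLBP, ZNF473 or CSTF2.

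ERI1, the 3′ exonuclease that binds the stem-loop together with SLBP and starts histone mRNA decay, did not pass the test either. It lies on chromosome 8 at 9002147 to 9116746 (plus strand). The CPM was 26.2, 29.5 and 27.2 in NC and 28.9, 32.2 and 30.8 in shPRMT6 cells. The lowest knockdown value was below the highest control value, and the log2 fold change of 0.15 had an interval of -0.06 to 0.35 (edgeR adjusted p = 0.290). Its homologs ERI2 (log2 fold change 0.16, SE 0.0846, adjusted p = 0.258) and ERI3 (-0.34, SE 0.145, adjusted p = 0.156) were not called in edgeR.

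**Figure D2:**
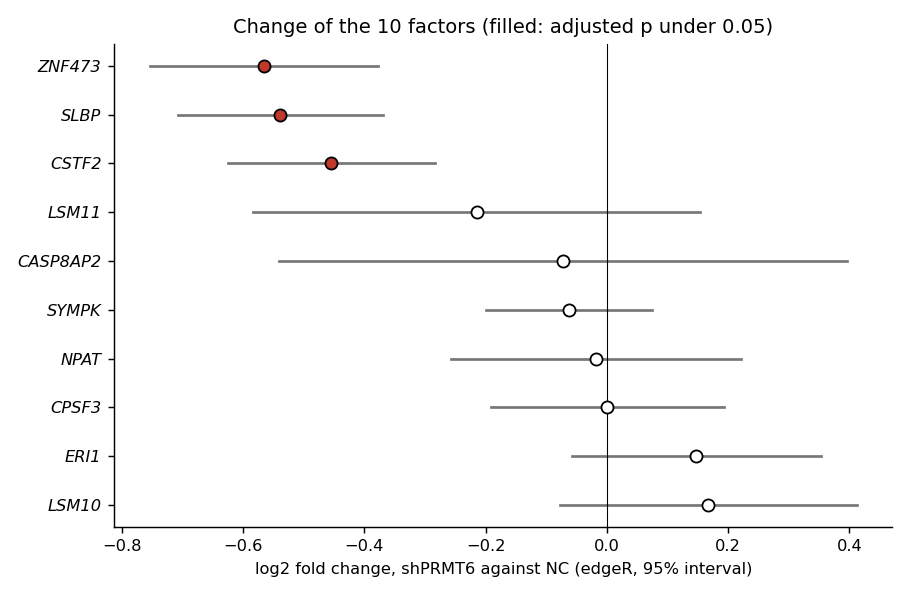
Log2 fold change of each factor in shPRMT6 against NC cells with its 95% interval from edgeR, filled where the adjusted p was under 0.05. The intervals of ZNF473, SLBP and CSTF2 lie wholly below 0, and those of the other 7 cross it.

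**Figure D3:**
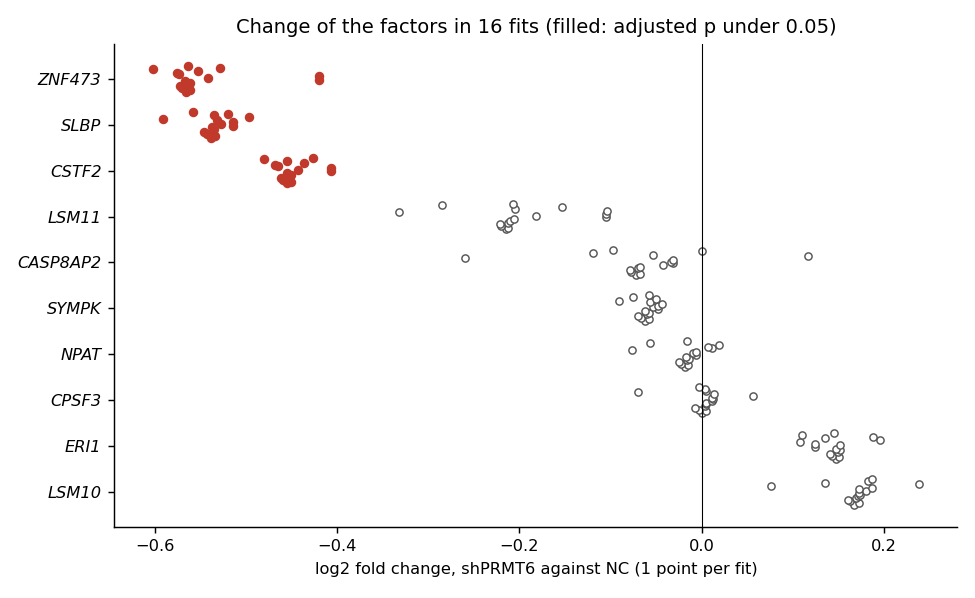
Log2 fold change of each factor in each of 16 fits (other tools, scalings, filters, a replicate block and leaving out each library), filled where the adjusted p was under 0.05. All points of ZNF473, SLBP and CSTF2 are filled and below -0.40, and no point of the other genes is filled.

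Per length, the factors spanned a wide range. In NC cells the FPKM was highest for SLBP, 39.9 ± 2.83 (SD, n = 3), followed by LSM10 at 19.6 ± 2.35, CPSF3 at 15.05 ± 1.22, CSTF2 at 11.6 ± 0.372 and SYMPK at 7.05 ± 0.180. The libraries of these genes did not overlap between neighbours in the order. ZNF473 (3.67 ± 0.0939), ERI1 (3.64 ± 0.234) and CASP8AP2 (3.07 ± 0.816) came next, and each overlapped its neighbour. NPAT (1.47 ± 0.110) and LSM11 (1.151 ± 0.188) were lowest, apart from CASP8AP2 and from each other. In shPRMT6 cells SLBP was still first at 27.6 ± 0.830 FPKM, next to LSM10 at 22.1 ± 0.841, and ZNF473 (2.49 ± 0.129) moved from rank 6 to rank 8. LSM10 and LSM11, which sit in the same U7 ring, lay at rank 2 and rank 10 in both groups. The lengths behind the FPKM values are the authors' own.

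The genes around the 10 factors were taken as 87 others in lists by role. Of these, 20 fell and 4 rose, 27.6% in all against 18.6% of genes tested. Without the first shPRMT6 library 15 of the 87 were called, beside 1871 of 18807 genes tested in that fit. Without the second it was 14, beside 1755 of 18973. By list, the called share was 71.4% of the transcription partners, 60% of the U7 Sm proteins, 30% of the processing cofactors and 37.5% of the SLBP turnover genes. For the general cleavage subunits it was 22.2%, for Integrator 20% and for the decay genes 15.8%. Those last shares lie near that of all genes and are no result about these lists. The higher shares rest on lists of only 5 to 10 genes. The calls of all 3 cofactors were lost in some fits, so their 30% is no result either. List medians are descriptions without a test.

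Among 7 partners in histone gene transcription, 4 fell and 1 rose, with a median log2 fold change of -0.57. E2F1, which drives S phase genes including NPAT, had 129, 119 and 131 CPM in NC and 85.1, 81.0 and 80.2 CPM in shPRMT6 cells, a fall of 0.62 on the log2 scale (SE 0.0641, edgeR adjusted p = 0.00199). The kinase pair that phosphorylates NPAT also changed: CDK2 fell by 0.57 (SE 0.1005) and CCNE2, a cyclin E, fell by 0.75 (SE 0.0911), whereas CCNE1, the other cyclin E, was at 0.15 and was not called (edgeR adjusted p = 0.296). POU2F1, the octamer factor of H2B promoters, fell by 0.85 (SE 0.158), a call lost when any 1 shPRMT6 library was left out (adjusted p up to 0.0552 in edgeR). HIRA, a repressor of histone genes and histone H3.3 chaperone, rose by 0.25 (SE 0.0636), a call lost whichever library was left out (adjusted p 0.0622 to 0.142 in edgeR). HINFP, the activator of H4 genes, was at 0.11 (SE 0.0987) and did not pass. The RNA of CCNE2 and CDK2 fell, and that of NPAT was not called. Their products act on NPAT protein, whose phosphorylation these RNA data do not measure.

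Among the 5 Sm proteins that complete the U7 ring, 3 fell and none rose, with a median of -0.30. SNRPB fell by 0.65 on the log2 scale (SE 0.101) and SNRPF by 0.53 (SE 0.0855), each in all 16 fits. SNRPD3 fell by 0.30 (SE 0.0551), and its call was lost when any 1 shPRMT6 library was left out (edgeR adjusted p up to 0.0620). These proteins also belong to the spliceosomal ring. The spliceosomal counterparts that LSM10 and LSM11 replace, SNRPD1 (-0.09, SE 0.143) and SNRPD2 (0.16, SE 0.317), were not called, and SNRPD2 ran from 83.7 to 175 CPM within the knockdown group.

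Of 10 cofactors of histone RNA processing, 3 fell and none rose, with a median of -0.11. The NELF subunits NELFA (-0.42, SE 0.0916) and NELFE (-0.29, SE 0.0773) and the cap-associated SRRT (-0.30, SE 0.0778) were called. These calls were fragile: that of SRRT was lost whichever library was left out (edgeR adjusted p 0.0548 to 0.132), that of NELFE without any library but the second NC one (up to 0.137), and that of NELFA without the third NC or any shPRMT6 library (up to 0.0942). MBLAC1, a nuclease reported to act on histone pre-mRNA, was at about 1 CPM and was not called (-0.03, SE 0.542).

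Among 18 other subunits of the general cleavage and polyadenylation machinery, 3 fell and 1 rose, with a median of -0.11. CPSF7 (-0.63, SE 0.0956) and NUDT21 (-0.32, SE 0.0582), both of cleavage factor I, fell, as did CSTF2T (-0.50, SE 0.0555), the paralog of CSTF2. The NUDT21 call was lost without the first or the second shPRMT6 library (edgeR adjusted p up to 0.0584). CSTF3, the subunit that joins the cleavage stimulation factor together, rose by 0.58 on the log2 scale (SE 0.0713, edgeR adjusted p = 0.00341), from 43.4, 43.5 and 40.2 CPM to 61.2, 62.3 and 67.0 CPM. Within that factor, CSTF2 and CSTF2T were thus lower and CSTF3 higher in every shPRMT6 library than in any NC library. CSTF1, its remaining subunit, was also higher without overlap, at 0.13 (SE 0.0644), but was not called (edgeR adjusted p = 0.205). CPM of the groups did not overlap for 40.2% of all genes. CPSF2, the inactive partner of CPSF3, was at -0.03 (SE 0.0730) and was not called.

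The Integrator complex, which cleaves small nuclear RNAs with a nuclease related to CPSF3, had 2 of 15 subunits lower and 1 higher, with a median of 0.10. INTS1 fell by 0.43 (SE 0.0670) in all 16 fits. The nuclease INTS11 fell by 0.52 (SE 0.118), a call lost without any library but the second NC one (edgeR adjusted p up to 0.0923). INTS7 rose by 0.31 (SE 0.0818), a call lost whichever library was left out (adjusted p 0.0675 to 0.131 in edgeR). INTS9, the counterpart of CPSF2, was at -0.31 (SE 0.108, edgeR adjusted p = 0.101).

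Of 8 genes that act on the translation and turnover of SLBP, 3 fell and none rose, with a median of -0.53. CCNF, the cyclin F that marks SLBP for destruction in G2, had 36.2, 31.7 and 36.5 CPM in NC and 18.5, 17.8 and 17.1 CPM in shPRMT6 cells. It fell by 0.97 (SE 0.0910), while CCNA2 fell by 0.85 (SE 0.0565) and CDK1, its kinase, by 0.82 (SE 0.0584). These 3 genes are also general genes of the late cell cycle.

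Of 19 genes of histone mRNA decay, 2 fell and 1 rose, with a median of -0.19. DCP1A, a decapping cofactor, fell by 1.08 on the log2 scale (SE 0.0833, edgeR adjusted p = 0.000925), from 42.8, 46.0 and 40.3 CPM to 19.8, 21.2 and 20.1 CPM. TUT7, a terminal uridylyltransferase that tags histone mRNAs, rose by 0.69 (SE 0.116), from 62.7, 82.5 and 65.9 CPM to 109, 111 and 122 CPM. LSM3, of the LSM1-7 ring that binds the tagged end, fell by 0.30 (SE 0.0765), a call lost whichever library was left out (edgeR adjusted p 0.0573 to 0.126). UPF1, the helicase recruited to the stem-loop, was at -0.19 (SE 0.0671, edgeR adjusted p = 0.102).

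**Figure D4:**
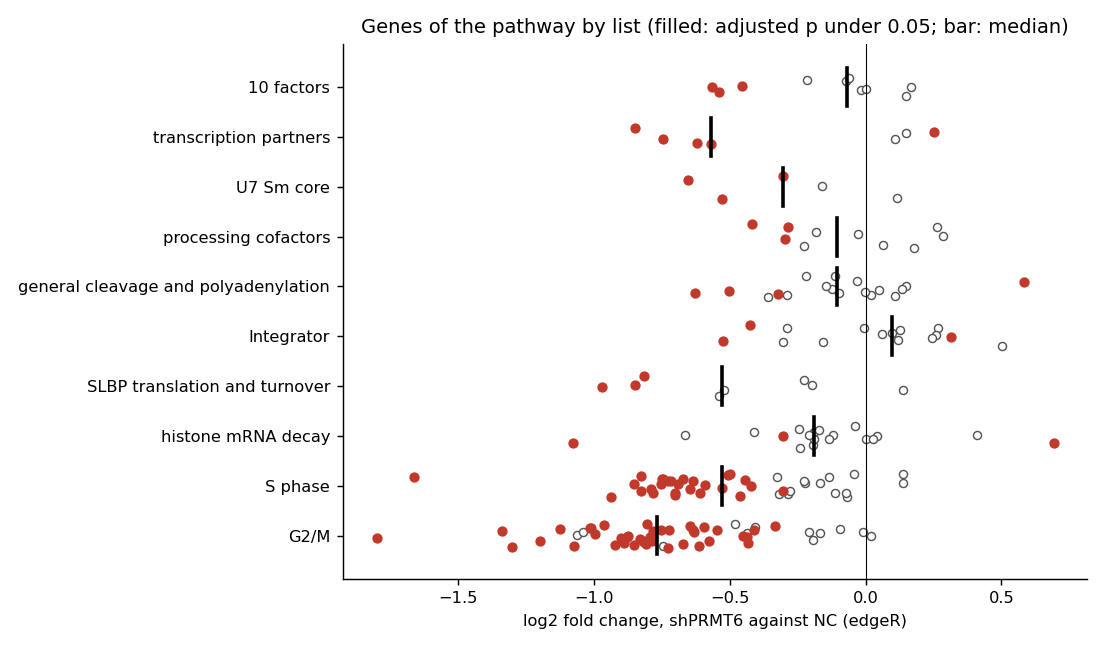
Log2 fold change in shPRMT6 against NC cells of the 10 factors and of the genes in each list, filled where the edgeR adjusted p was under 0.05, with a bar at each list's median. The 10 factors have a median of -0.07, the transcription partners -0.57, the S phase list -0.53 and the G2/M list -0.77.

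Most genes of the S phase and G2/M lists fell in shPRMT6 cells, 65.9% and 76.9%, beside 9.06% of all genes tested. Of 41 S phase genes, 27 fell and none rose (median -0.53), and their summed CPM was 3126 to 3311 in NC and 2235 to 2310 in shPRMT6 cells. Of 52 G2/M genes, 40 fell and none rose (median -0.77), with sums of 6614 to 7171 and 4367 to 4466 CPM. The S phase list holds CASP8AP2 and CCNE2, and CDK1 is a G2/M gene. Set against the summed CPM of the 40 S phase genes other than CASP8AP2, a comparison chosen after the values were seen, a gene whose CPM did not move is expected at a difference of about 0.5, since the sum itself fell by 0.51 on the log2 scale. SLBP (a log2 difference of -0.03 between groups), ZNF473 (-0.06) and CSTF2 (0.05) had ratios to the S phase sum that overlapped between groups. The ratio was higher in shPRMT6 cells, without overlap, for 5 others: LSM10 by 0.68, ERI1 by 0.65, CPSF3 by 0.51, NPAT by 0.49 and SYMPK by 0.44. That is 5 of 10, beside 54% of all genes tested, and no factor had a lower ratio without overlap, beside 3.56%, so these counts are no result about the factors. CASP8AP2 (0.46) and LSM11 (0.30) had overlapping groups. The ratios restate each gene's own fold change against that of the S phase sum, and the part of the lower sum in the lower SLBP, ZNF473 and CSTF2 was not tested.

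**Figure D5:**
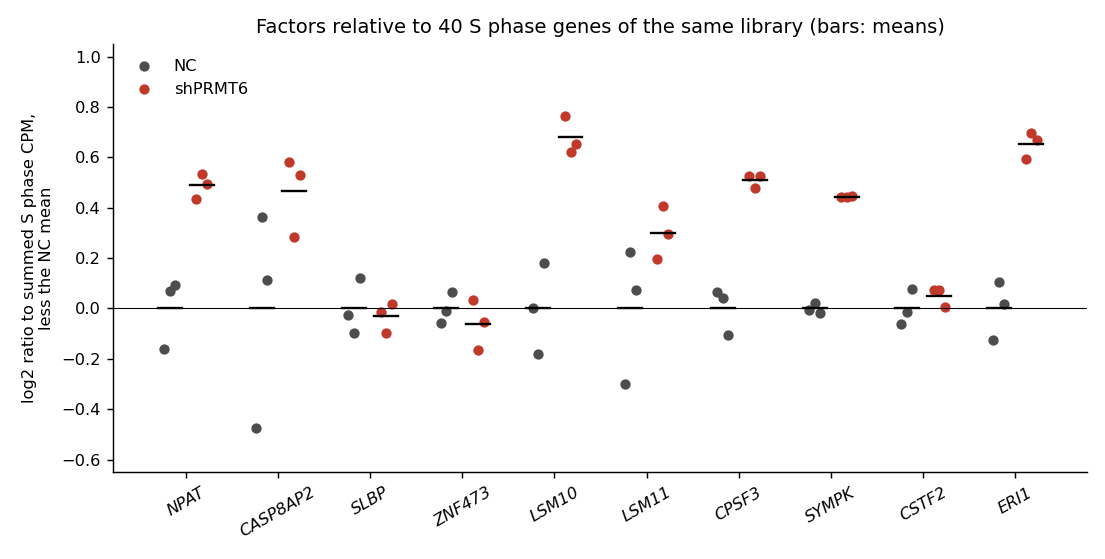
Log2 ratio of each factor's CPM to the summed CPM of 40 S phase genes of the same library, less the mean of the NC libraries, with NC in grey, shPRMT6 in red and bars at the means of 3 libraries. SLBP, ZNF473 and CSTF2 lie around 0 in both groups, and the shPRMT6 points of NPAT, LSM10, CPSF3, SYMPK and ERI1 lie above their NC points.

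Some members have a relative. INTS11, related to CPSF3, and SNRPD1 and SNRPD2, the counterparts of LSM10 and LSM11, work on other RNAs. CSTF2T, in contrast, belongs to the same cleavage stimulation factor as CSTF2. The log2 ratio of the FPKM of a member to that of its relative within a library needs no scaling between libraries. With 3 libraries against 3, the smallest p of the two-sided exact permutation test was 0.1. CSTF2 to CSTF2T changed by 0.05 (exact permutation p = 0.4, 0.533 adjusted over the 4 ratios), from -0.46, -0.52 and -0.43 to -0.41, -0.38 and -0.47, with overlapping groups. CPSF3 to INTS11 rose from 1.70, 1.74 and 1.17 to 2.10, 1.94 and 2.14, a difference of 0.52 without overlap (exact permutation p = 0.1, adjusted 0.4), or 0.34 without the third NC library. LSM10 to SNRPD1 differed by 0.26 (exact permutation p = 0.4, adjusted 0.533) and LSM11 to SNRPD2 by -0.33 (exact permutation p = 0.7, adjusted 0.7), both with overlapping groups. No ratio passed the threshold, which this design could not reach.

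Among 10050 well-detected genes (average log2 CPM of 3 or more), the pattern over the 6 libraries closest to that of SLBP was found in PNPLA6 (root mean square difference 0.0235 on the log2 scale), SLCO4A1 (0.0279) and DENND1A (0.0291). For NPAT it was found in SOCS5 (0.0191), WDR73 (0.0210) and RNF115 (0.0227). These are likenesses over 6 libraries only.

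The products of this pathway, the replication-dependent histone genes, were listed as 66 genes of which 47 had enough counts. Of these 14 rose and 1 fell, 31.9% in all against 18.6% of genes tested, with a median of 0.46. The summed CPM was 78.9 to 89.2 in NC and 218 to 219 in shPRMT6 cells. How RNA was selected for the libraries is not given in the sources used here, and it decides which forms of histone mRNA are counted.

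The hairpins of the study were compared with the 3′ UTRs of the members, since a hairpin can act on transcripts that pair with its seed, bases 2 to 8 of its antisense strand. Each target is printed as its sense strand 5′ to 3′, with capitals for the word that the seed pairs with.
shPRMT6 #1: gcccagtttgagaTGCCTTAt
shPRMT6 #2: caccggcattctgAGCATCTt
shPRMT6 #3: cacggacgtttcaGGAGAGAt
A 3′ UTR of at least 50 bases was annotated for 9 members, all but CASP8AP2. The word of #1 was present in 4 of them (SLBP, LSM11, ERI1 and SYMPK) and in 16.7% of 13119 genes, that of #2 in LSM11 alone and in 16.9% of genes, and that of #3 in SYMPK alone and in 21.2% of genes. In SLBP the word of #1 lies at base 137 of a 3′ UTR of 797 bases, in the context gaattattttTGCCTTActttcttaag. Of the members that fell, ZNF473 and CSTF2 held none of the 3 words and SLBP only that of #1. LSM11, ERI1 and SYMPK, which also held it, were not called. The hairpin that the sequenced cells carried is not given in the sources used here. The labels number the libraries of both groups alike and do not say whether the shPRMT6 numbers name hairpins. Other experiments of the study in U87 cells name #2 and #3 and not #1. The part of any hairpin in the level of SLBP was not tested.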

How the data were processed

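RNA-seq was measured in 3 NC and 3 shPRMT6 libraries of U87 cells, grouped by the labels. The authors deposited 1 table with raw read counts and FPKM per gene and library. Per the labels, reads were aligned with HISAT2 to GRCh38 and counted with HTSeq (0.13.5), and libraries were made with a NEBNext Ultra kit. Gene symbols were matched for 60401 of 60612 IDs, and coordinates came from GENCODE 29. Counts were filtered with filterByExpr, TMM-scaled and tested with edgeR 4.0.16 (R 4.3.3) over 18106 genes, with Benjamini-Hochberg adjustment. Alternatives used DESeq2 1.42.0 and limma 3.58.1 on log2(FPKM + 1) or log2(FPKM + 0.1), other filters and scalings, a replicate block, and leaving out each library. The fits were also run on simulated counts with the same dispersion for every gene. Genes here differed in spread between replicates, so that run does not give error rates for these data. Exact permutation tests used SciPy 1.17.1. Intervals are 95%. Promoters are from RefSeq (GRCh38.p14), and hairpin targets from the study's own list.

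Members and lists were chosen with earlier results of these data known. Named genes are the 10 members, PRMT6, up to 3 called genes per direction and list by smallest p, fixed relatives, and the 3 nearest patterns for SLBP and NPAT. CCNE1, UPF1 and CSTF1 were added after their values were seen.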

Additional observations from a re-analysis of the deposited data

How the results depend on the processing

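The 3 calls among the factors held in all 15 alternatives. Whether replicate numbers pair the libraries is not given in the sources used here. The deviations of same-numbered libraries correlated at 0.0456, -0.0399 and -0.0394, and those of differently numbered ones at -0.0438 to 0.0773. Such values show no shared effect of a number, but cannot tell whether libraries were prepared in pairs. With the replicate block, 3 factors, 16 pathway genes and 1858 of all genes were called, against 24 pathway genes and 3362 of all genes without it. PRMT6 was at -0.88 with the block (edgeR adjusted p = 0.0803). The mean ratio differences within pairs equal those between the groups by arithmetic, so they are no check of the ratios. DESeq2 called 5782 genes and 37 pathway genes. Leaving out 1 library gave 1755 to 3183 genes, 14 to 23 pathway genes, a median of the factors of -0.168 to -0.0226 and PRMT6 at -1.0 to -0.73. With limma on log2(FPKM + 1) that median was -0.0392 with or without the filter, and without it PRMT6 was at -0.47 (adjusted p = 0.0578). Signs turned only in genes that were never called: leaving out 1 library put NPAT at -0.0758 to 0.0195 (positive without the second NC, the third NC or the first shPRMT6 library), CASP8AP2 at -0.259 to 0.116 (positive without the second NC library) and CPSF3 at -0.0697 to 0.0565 (negative without the third NC or the third shPRMT6 library), and CPSF3 was -0.00287 without scaling and -0.00676 with upper quartile factors. The cause of these shifts was not tested. With 3 libraries a group, LSM11 and CASP8AP2 have intervals that hold the change of SLBP.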
